A study of Mus musculus with 30 samples.

Results

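The mitosis and spindle checkpoint genes are 35 genes that act when a cell condenses, aligns and separates its chromosomes and then divides. They were taken by symbol from a list of cyclins, mitotic kinases, chromosome, kinetochore, checkpoint and cytokinesis genes, by a rule that uses no measured value. The list itself was made with earlier results of these data known. All 35 were found among the 14997 genes kept from captured cells and among the 26005 genes of the cultured spheres. Laser capture microdissection took cells of the midbrain floor plate, the ventral midline of the neural tube, from mice of the genotype Lmx1aCreERT2; R26TRAPC. In these mice a tamoxifen-inducible recombinase is driven by Lmx1a, a floor plate gene, and every captured library carries both alleles, so no library without them stands beside the ages. There were 4 libraries at embryonic day 11 (E11), 5 at embryonic day 13 (E13), 5 at embryonic day 18 (E18) and 6 at postnatal day 70 (P70). Another 10 libraries, 5 with the name MB and 5 with the name FB, hold RNA of spheres grown from adult cells, with no genotype or treatment beyond culture in vitro given. The series' text mentions neurospheres of the lateral ventricle and ependymal spheres of the aqueduct in the midbrain, but MB and FB are not spelled out. Whether libraries within a group stem from different animals or cultures is not stated by any label. The p-values therefore measure the spread between these samples, and where 2 captures come from 1 animal they are too small.

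Entry into mitosis is driven by cyclin B bound to the kinase Cdk1, after cyclin A has carried the cell through replication. Chromosomes then attach to spindle microtubules through kinetochores, and the spindle checkpoint holds back the anaphase-promoting complex until every kinetochore is attached. The complex, a ubiquitin ligase, then marks cyclin B and the guardian of sister cohesion for destruction, the sisters part and the cell is cleaved. Most genes of this programme are transcribed late in the cell cycle, and their RNAs are widely used as markers of dividing cells. In the embryonic midbrain the floor plate holds dividing progenitors that give rise to dopamine neurons, and multiciliated ependymal cells, which no longer divide, line the adult ventricle. In bulk RNA, fewer dividing cells and less RNA in each dividing cell cannot be told apart.

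Levels in captured cells are the deposited values, which behave as RPKM (reads per kilobase of gene, scaled to the depth of the library) although no label names the unit, and they are written here as RPKM. The deposited table gives a gene's values at an age if they average 1 or more there, and such a gene is called listed. Captured libraries held 1071229 to 3875645 recovered reads each, with the lowest at P70, and sphere libraries held 6327198 to 9291311 counts. Of the low recovered counts, 62.4% to 73.0% were even, so recovered reads of some genes may be counted 2 times. All 9 floor plate markers checked were listed at E11, with summed levels of 585 to 686 RPKM, and 7 at P70, with 128 to 182. The 8 ependymal markers summed to 13.7 to 28.7 RPKM at E11, with 4 of them listed, and to 13898 to 21135 at P70, with all 8 listed. In the spheres the same ependymal markers summed to 27.4 to 39.1 CPM (counts scaled to library size) in MB and 17.2 to 22.3 in FB, and none was at 0 in every library of a group.

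All 35 genes were listed at E11 and E13, 29 at E18 and 15 at P70. The 6 that were not listed from E18 on were Mki67, Cdca2, Bub1, Bub1b, Cenpe and Ttk. The summed level of the listed genes was 4952, 5067, 4580.4 and 4726 RPKM in the 4 libraries at E11 and 1056, 958, 1688, 2572 and 2100.2 at E13. It was 199, 132, 169.8, 147 and 153 at E18, and between 62.9 and 128 RPKM with a median of 95.3 at P70. Every E13 library lay below every E11 library, and every E18 library lay below every E13 library. Every P70 sum, over 15 genes, lay below every E18 sum, over 29, with 128 RPKM the highest at P70 and 132 the lowest at E18. The 2 ages were not compared over the same genes. The sums run over fewer genes at the later ages, and at P70 Nuf2 alone made up 40.4 to 92.9 RPKM of them.

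**Figure D1:**
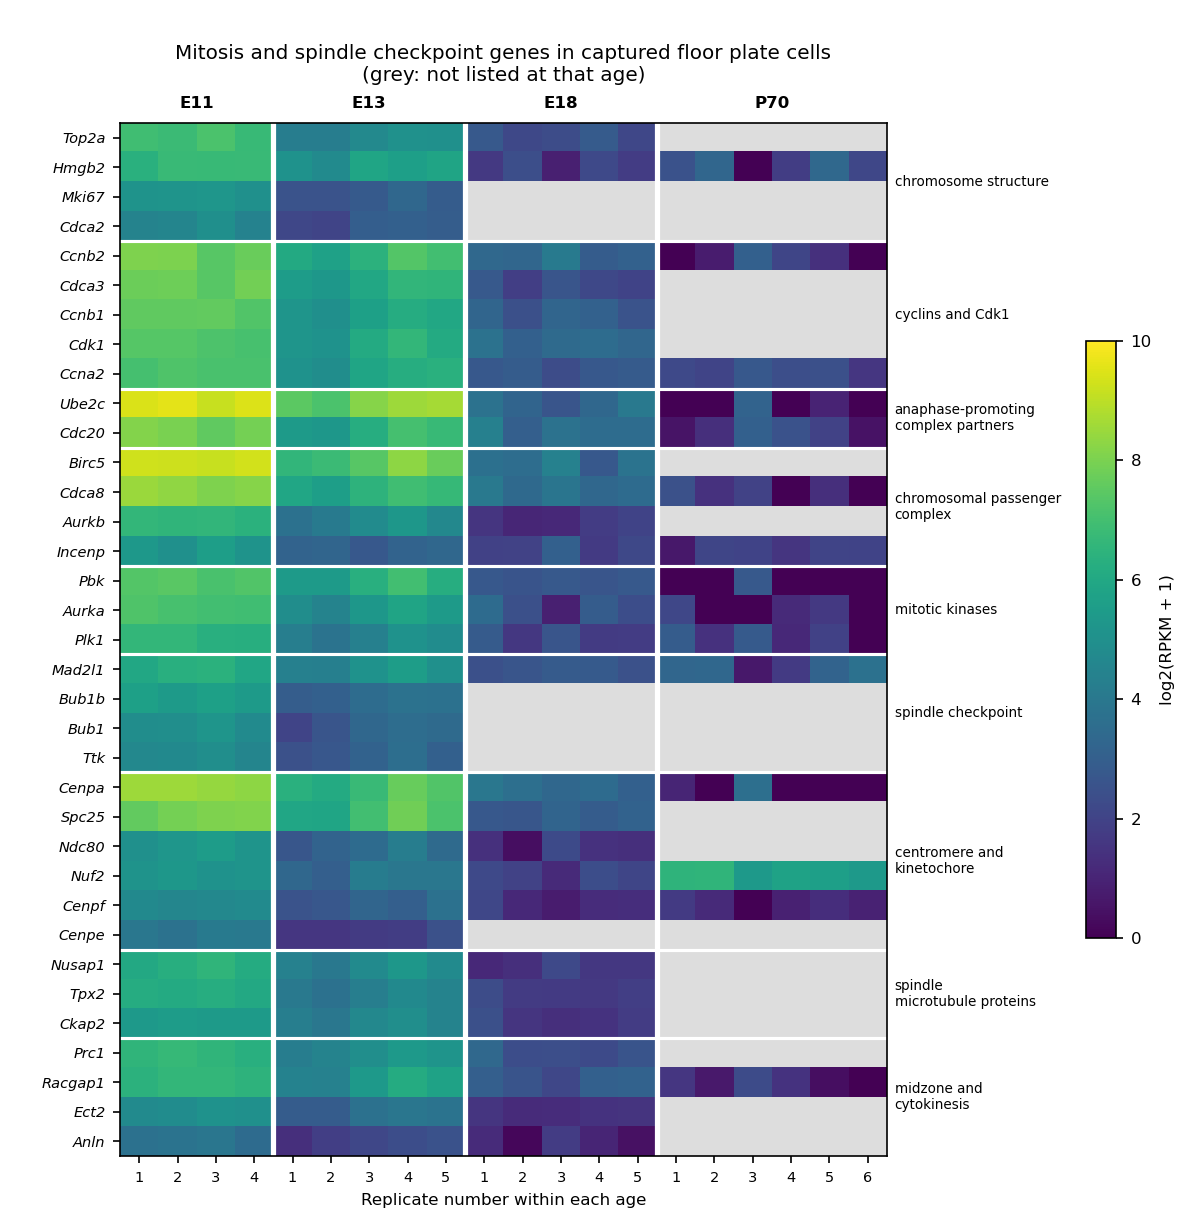
Level of each of the 35 genes in each of the 20 captured libraries, as log2(RPKM + 1), with genes grouped by role on the vertical axis and libraries grouped by age on the horizontal axis. Grey marks an age at which the gene is not listed, which holds for 6 genes at E18 and 20 at P70, and the Nuf2 row is the brightest at P70.

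At E11 the highest level per length among the 35 belonged to Ube2c, the ubiquitin-conjugating enzyme of the anaphase-promoting complex, at 689 ± 83.1 RPKM (SD, n = 4). Birc5 (survivin), a subunit of the chromosomal passenger complex that corrects wrong attachments, followed at 608 ± 28.7 RPKM, and the centromeric histone Cenpa stood at 349 ± 25.5. Cdca8 (borealin), another passenger subunit, measured 309 ± 43.5 RPKM, Spc25 of the kinetochore 244 ± 39.0 and Cdc20, which activates the anaphase-promoting complex, 240.5 ± 39.2. The means of Spc25 and Cdc20 lay closer than their SDs, and those of Ube2c and Birc5 closer than the SD of Ube2c. At the other end stood Anln (anillin), a scaffold of the contractile ring, at 12.3 ± 1.59 RPKM, and Cenpe, a kinesin of the kinetochore, at 14.6 ± 1.49. In the spheres, where levels were taken as CPM per kilobase of annotated exon, the order of the genes was similar. Over the 35 genes, which share their libraries, Spearman's rho was 0.73 between E11 RPKM and FB CPM per kilobase and 0.98 between MB and FB, given as descriptions across genes.

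The genes were also read for letters that their promoters share, since they move together in the results that follow. Promoter elements are known for genes of late cell cycle expression, the cell cycle genes homology region (CHR), which the DREAM and B-MYB-FOXM1 complexes bind, and the CCAAT box, which NF-Y binds. RefSeq promoter windows of build GRCm38.p6, from 250 bases before to 50 after an annotated start, were matched by symbol for 29 of the 35 genes. Windows for Aurkb, Ccna2, Cdca2, Incenp, Pbk and Tpx2 were not matched. The letters searched on both strands were TTTGAA and TTCGAA for the CHR, CCAAT for the box, and TTTCCCGC, TTTGGCGC, TTTCGCGC and TTTGCCGC for E2F. TTCGAA reads the same on both strands and was counted once, and matches of different motifs overlapped once in all member windows.

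A CHR match was found in 23 of the 29 genes (79.3%), against 21.7% of 27025 genes with a window. With the first base of the match limited to the 50 bases on either side of the start, 21 genes (72.4%) held one, against 6.12% of all genes. That narrower window was chosen after the positions were seen. A CCAAT match was found in 23 genes (79.3%), against 41.1% of all genes, and 17 held 2 or more, against 13.3%. Both motifs stood in 1 window for 21 genes (72.4%) and for 8.61% of all genes. An E2F match stood in 1 gene (3.45%), Cdk1, against 2.61% of all genes. The windows of Birc5, Mad2l1, Nuf2 and Nusap1 held neither a CHR nor a CCAAT match, which says only that these letters are not in these windows. A match is a description and not a bound site.

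**Figure D2:**
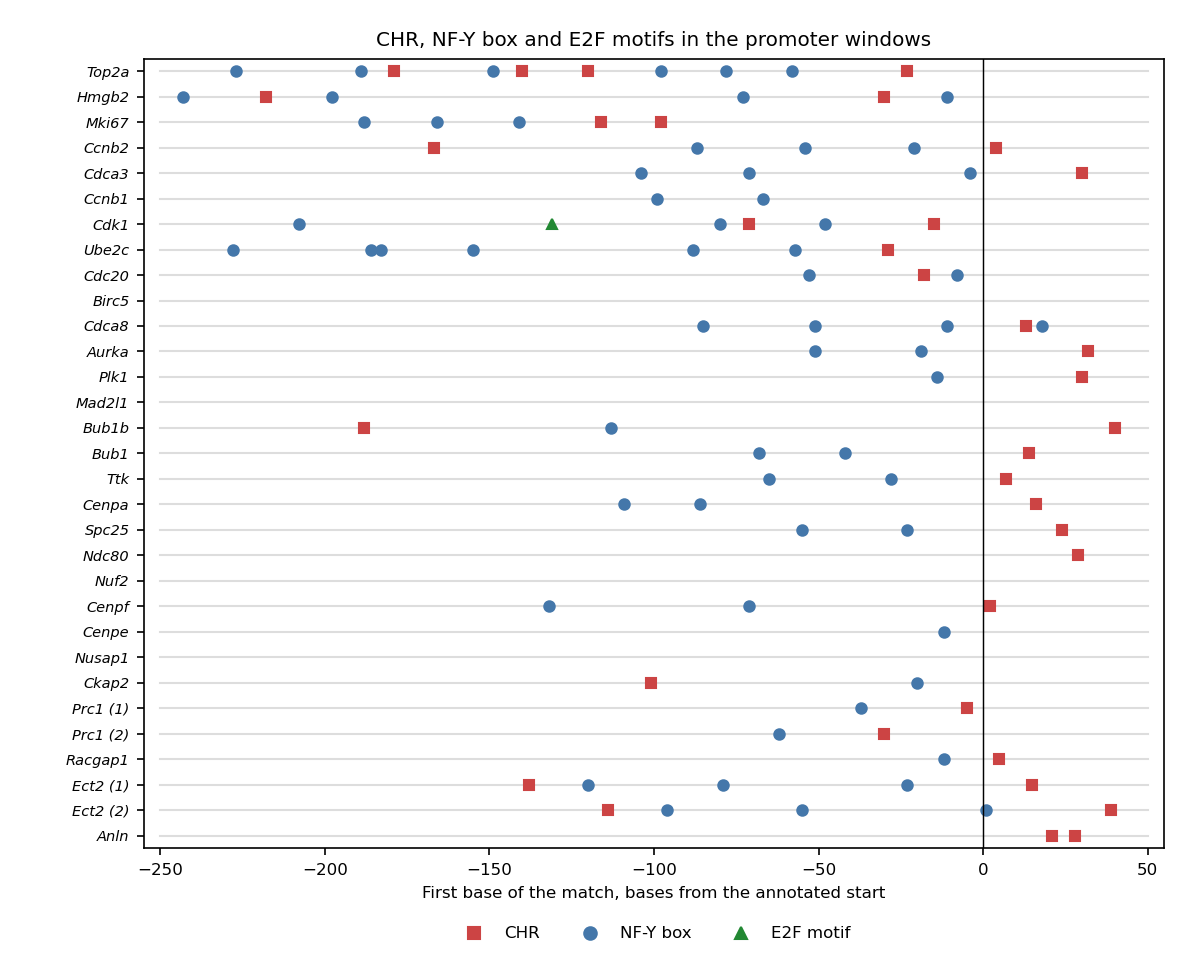
Position of each CHR match (red squares), NF-Y or CCAAT box match (blue circles) and E2F match (green triangle) in the promoter windows of the 29 genes, with the first base of the match in bases from the annotated start on the horizontal axis and 1 line per window (Prc1 and Ect2 have 2). CHR matches gather within 50 bases of the start, where 21 genes hold one, and CCAAT matches mostly lie before it.

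The stretch from 100 bases before to 50 after the start is printed for 8 genes, 5' to 3' on the gene's strand, with CHR and CCAAT matches of either strand in capitals. Ube2c, Cdc20, Ccnb2, Cdk1 and Plk1 are shown as regulators of mitotic entry and exit with CHR matches. Spc25, Ndc80 and Nuf2 are shown because they encode parts of 1 kinetochore complex and differ in level at P70, described further on. The coordinates are chr2:164769829-164769978 (+) for Ube2c, chr4:118437294-118437443 (-) for Cdc20, chr9:70421505-70421654 (-) for Ccnb2, chr10:69352863-69353012 (-) for Cdk1 and chr7:122159335-122159484 (+) for Plk1. They are chr2:69206164-69206313 (-) for Spc25, chr17:71526808-71526957 (-) for Ndc80 and chr1:169531415-169531564 (-) for Nuf2, all on GRCm38.p6.
Ube2c: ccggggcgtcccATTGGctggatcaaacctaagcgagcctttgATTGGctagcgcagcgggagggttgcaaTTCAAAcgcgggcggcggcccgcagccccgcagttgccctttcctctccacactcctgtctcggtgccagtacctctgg
Cdc20: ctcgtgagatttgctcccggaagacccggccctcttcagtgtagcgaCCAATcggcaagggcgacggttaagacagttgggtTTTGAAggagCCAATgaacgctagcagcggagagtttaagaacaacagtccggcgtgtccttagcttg
Ccnb2: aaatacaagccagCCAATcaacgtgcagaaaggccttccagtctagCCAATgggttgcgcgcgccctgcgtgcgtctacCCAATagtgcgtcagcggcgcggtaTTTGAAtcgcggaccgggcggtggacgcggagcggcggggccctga
Cdk1: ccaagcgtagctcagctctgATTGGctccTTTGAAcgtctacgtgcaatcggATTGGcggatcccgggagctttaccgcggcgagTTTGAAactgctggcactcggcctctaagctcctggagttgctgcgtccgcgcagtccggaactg
Plk1: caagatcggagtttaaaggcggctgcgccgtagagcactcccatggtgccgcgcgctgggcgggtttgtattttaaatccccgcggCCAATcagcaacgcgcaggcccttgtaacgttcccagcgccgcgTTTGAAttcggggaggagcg
Spc25: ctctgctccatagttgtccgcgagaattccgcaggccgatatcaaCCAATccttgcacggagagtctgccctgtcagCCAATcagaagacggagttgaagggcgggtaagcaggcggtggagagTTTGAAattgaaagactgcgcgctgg
Ndc80: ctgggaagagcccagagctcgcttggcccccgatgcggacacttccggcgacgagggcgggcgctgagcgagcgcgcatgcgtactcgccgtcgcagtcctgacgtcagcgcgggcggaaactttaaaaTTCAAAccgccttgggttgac
Nuf2: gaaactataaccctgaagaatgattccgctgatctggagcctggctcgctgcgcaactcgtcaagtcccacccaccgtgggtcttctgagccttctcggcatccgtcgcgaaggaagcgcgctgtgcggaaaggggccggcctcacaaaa
Counted with the start as position 0, the CHR begins at -29 in Ube2c, -18 in Cdc20, 4 in Ccnb2, 30 in Plk1, 24 in Spc25 and 29 in Ndc80. In Cdk1 it begins at -71 and again at -15. The stretch of Ndc80 holds a CHR and no CCAAT match, and that of Nuf2 holds neither.

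The first comparison asks what changed in the floor plate from E11 to E13, when neurons are being born. Of the 35 genes, 32 fell and 0 rose (limma, adjusted p under 0.05), beside 11.5% of all 11567 genes tested that fell and 9.44% that rose. No gene of the 35 had a positive change. Their median log2 change was -1.71 and the median of all genes tested was -0.04. The changes ran from -2.30 for Mki67, which coats mitotic chromosomes and marks dividing cells, to -0.99 for Ckap2, a spindle microtubule protein. In 34 genes every E13 library lay below every E11 library, as it did in 17.2% of all genes, while 28.4% of all genes had no overlap in either direction. At E13 the genes held a median of 30.7% of their E11 mean, from 18.3% for Cenpe to 50.6% for Ckap2. Log2 changes are on the scale of log2(RPKM + 1), which understates the change of low genes.

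Among the chromosome genes, Mki67 measured 34.4, 35.03, 37.6 and 31.0 RPKM at E11 and 4.84, 4.94, 6.16, 9.23 and 6.55 at E13. Top2a, the topoisomerase that untangles sister chromatids, measured 121, 110.4, 144 and 106 RPKM and then 18.02, 18.04, 25.4, 32.2 and 31.2. Both genes were low in each E13 library, with the lowest values in replicates 1 and 2, and did not overlap with E11. Mki67 fell, with a change of -2.30 on the log2 scale (SE 0.21, limma adjusted p = 9.98e-06) and Top2a, at -2.26 (SE 0.23, limma adjusted p = 3.72e-06). Hmgb2, a chromatin protein of dividing cells, measured 79.4, 108, 104 and 107 RPKM and then 33.2, 26.4, 57.8, 49.6 and 56.2. Its groups did not overlap either, but its change of -1.19 did not pass (SE 0.48, limma adjusted p = 0.082). In a fit of the 2 ages alone Hmgb2 passed, with a limma adjusted p of 0.00201. Cdca2, which brings a phosphatase to anaphase chromosomes, fell, with a change of -1.96.

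Of the cyclins and their partners, Ccnb1, Ccna2, Cdk1 and Cdca3, which acts in mitotic entry, fell, with log2 changes of -1.89, -1.44, -1.44 and -1.71. The other B-type cyclin, Ccnb2, went from 265, 257, 168 and 210.4 RPKM at E11 to 65.9, 51.6, 84.2, 159 and 125 at E13. The highest E13 library, replicate 4, came close to the lowest at E11, and the change of -1.30 did not pass (SE 0.48, limma adjusted p = 0.0568). Cdc20 went from 282, 254, 189 and 237 RPKM to 42.3, 38.1, 73.1, 133 and 105, which is -1.75 on the log2 scale (SE 0.45, limma adjusted p = 0.00768). Ube2c went from 696, 772, 574 and 713 RPKM to 177, 145, 286, 371 and 396. Replicates 3, 4 and 5 of E13 held more Ube2c than replicates 1 and 2, and the groups did not overlap. Ube2c passed narrowly, at -1.42 (SE 0.49, limma adjusted p = 0.044).

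All 4 genes of the chromosomal passenger complex fell, with a median log2 change of -1.97. Birc5 measured 616, 611, 569 and 637 RPKM at E11 and 95.3, 113, 168, 316 and 209 at E13. Cdca8 measured 365, 319, 263 and 289 and then 59.2, 47.2, 88.3, 120.1 and 104 RPKM. In both genes the highest E13 library, replicate 4, was well below the lowest E11 library. Birc5 fell, with a change of -1.88 on the log2 scale (SE 0.32, limma adjusted p = 5.05e-04) and Cdca8, at -1.94 (SE 0.40, limma adjusted p = 0.00134). Aurkb, the kinase of the complex, fell, with a change of -1.999 and Incenp, its scaffold, at -2.13. Of the other mitotic kinases, Aurka, which matures the centrosomes, fell, with a change of -1.88 and Plk1, a kinase of many mitotic steps, at -1.97. Pbk, a kinase of dividing cells, changed by -1.22 and did not pass (SE 0.44, limma adjusted p = 0.0506).

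All 4 spindle checkpoint genes fell. The pseudokinase gene Bub1b (BubR1), part of the inhibitor that holds the anaphase-promoting complex back, measured 50.5, 42.2, 50.1 and 42.2 RPKM at E11 and 6.82, 7.31, 10.6, 12.6 and 12.4 at E13. It fell, with a change of -2.14 on the log2 scale (SE 0.22, limma adjusted p = 2.25e-05). The checkpoint kinases Bub1 and Ttk (Mps1) fell, with changes of -1.96 and -1.72, and Mad2l1 (Mad2), which binds Cdc20, at -1.29 (SE 0.44, limma adjusted p = 0.0424). All 6 centromere and kinetochore genes fell as well. Cenpa measured 371, 369, 339 and 318 RPKM and then 80.0, 67.9, 108, 203 and 156, with E13 replicate 4 highest, and its log2 change was -1.61 (SE 0.53, limma adjusted p = 0.0338). Spc25, a subunit of the Ndc80 complex that grips microtubules, measured 190.1, 241, 268 and 277 RPKM and then 60.1, 58.4, 123, 227 and 143. It was the only gene of the 35 whose groups overlapped, through E13 replicate 4, and it fell, with a change of -1.16 (SE 0.32, limma adjusted p = 0.0149). Its partners Ndc80 and Nuf2 fell, with changes of -1.84 and -1.48.

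All 7 spindle and cytokinesis genes fell. Ckap2 had the smallest change of the 35, from 40.2, 44.7, 43.0 and 42.6 RPKM to 18.2, 14.6, 24.2, 29.4 and 21.5, with no overlap and a fall of -0.99 (SE 0.24, limma adjusted p = 0.00717). Tpx2, which activates Aurka on the spindle, and the microtubule bundler Nusap1 fell, with changes of -1.90 and -1.60. Prc1 and Racgap1 of the midzone, the cleavage regulator Ect2 and Anln fell, with changes of -1.68, -1.30, -1.48 and -1.67. The calls of Mad2l1, Cenpa, Ube2c and Racgap1 ended when single libraries of either age were left out. Their limma or edgeR adjusted p ran up to 0.126, 0.287, 0.33 and 0.219 over the alternatives. Their direction held in each. A pseudocount of 0.1 ended those calls and also the calls of Aurka, Cdca8, Plk1, Cdc20 and Cenpf, with a limma adjusted p of 0.172 for Aurka and 0.12 for Cdca8. Without E13 replicate 4, Ccnb2 and Pbk passed, with adjusted p of 0.0382 and 0.0271 in limma. Hmgb2, Ccnb2 and Pbk all passed in limma with a pseudocount of 5, with library weights or with the 2 ages alone. They also passed in edgeR on recovered reads. With the 2 ages alone, Ube2c had a limma adjusted p of 0.00214.

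The E13 libraries differed among themselves in these genes. Replicate 4 was the highest of the 5 for 27 of the 35 genes, replicate 2 was the lowest for 23 and replicate 1 for 11. The remaining lowest value was that of Incenp in replicate 3. Markers of neurons moved the other way across the same libraries. The 12 neuron markers, all listed at both ages, summed to 2821, 4456, 2643, 1844 and 1892 RPKM in E13 replicates 1 to 5, and to 632, 808, 906 and 1284 in E11 replicates 1 to 4. Set beside the sums of the mitosis genes, the E13 library with the most neuron marker RNA, replicate 2, had the least mitotic RNA, and replicate 4 had the least of the first and the most of the second. The 40 DNA replication genes summed to 1096, 1082, 1424, 1872 and 1477 RPKM in the 5 E13 libraries, again with replicate 4 highest and replicate 2 lowest. Of the neuron markers 8 of 12 were higher at E13 than at E11, with a median log2 change of 1.17. All 9 tested microglia and macrophage markers were higher, with sums of 57.7 to 117 RPKM at E11 and 190.3 to 333 at E13. Of 7 fibroblast and meninges markers 6 were lower, with sums of 299.9 to 831 RPKM at E11 and 52.6 to 153 at E13. No marker of these lists that was listed at an age was at 0 in every library of it. The part of these other cells in the fall of the mitosis genes was not tested.

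**Figure D3:**
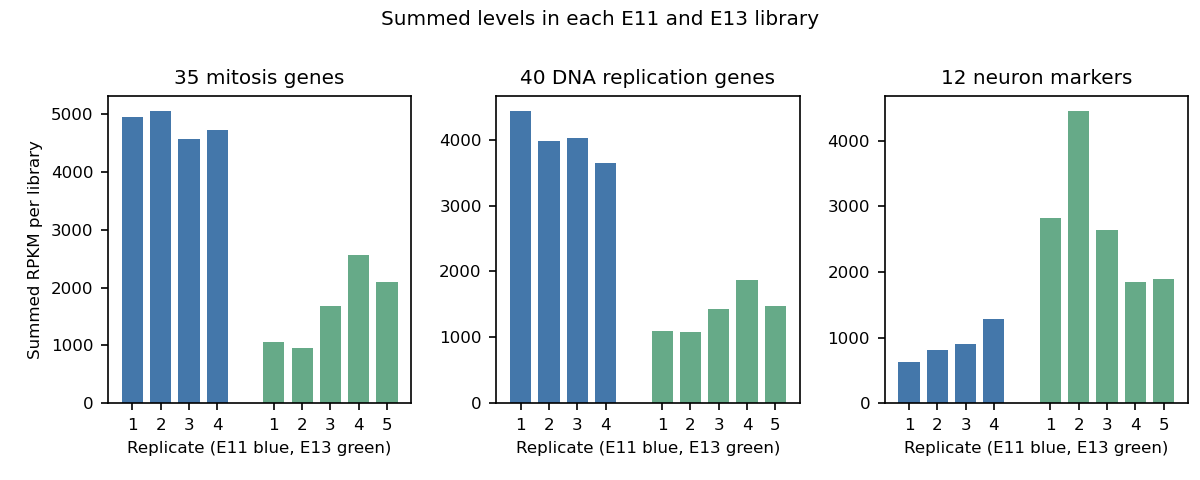
Summed RPKM of the 35 mitosis genes, of 40 DNA replication genes and of 12 neuron markers in each library, with E11 replicates in blue, E13 replicates in green and bars from 0. Among E13 libraries, replicate 2 has the lowest mitosis sum (958 RPKM) and the highest neuron marker sum (4456 RPKM), and replicate 4 has the highest mitosis sum (2572 RPKM).

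From E13 to E18, when ependymal markers became abundant, all 29 genes that could be tested fell (limma, adjusted p under 0.05), beside 25.0% of all 11797 genes tested that fell and 47.4% that changed in either direction. Their median log2 change was -2.68, against -0.04 over all genes. In 27 of them every E18 library lay below every E13 library, as it did in 20.9% of all genes, and Anln and Incenp overlapped. Of all genes, 37.8% had no overlap in either direction. The means fell 2.11-fold for Incenp to 27.2-fold for Ube2c. Mki67, Cdca2, Bub1, Bub1b, Cenpe and Ttk, listed at E13, were no longer listed at E18, so 3 of the 4 checkpoint genes had no value left to test. Of all 12381 genes listed at E13, 11797 were listed at E18 as well. At E18 the 29 genes held a median of 4.04% of their E11 mean, and all of them were under 10%, from 1.47% for Ube2c to 9.82% for Incenp.

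The largest fall was that of Ube2c, which measured 12.5, 8.42, 5.29, 9.07 and 15.4 RPKM in the 5 E18 libraries. Its log2 change was -4.60 (SE 0.46, adjusted p = 5.20e-08) in limma. Spc25 measured 5.81, 5.37, 8.40, 6.53 and 7.74 RPKM and fell, with a change of -3.81 (SE 0.30, limma adjusted p = 1.96e-08), while Birc5 measured 11.8, 10.8, 19.8, 5.75 and 12.9 and fell, with a change of -3.74 (SE 0.30, limma adjusted p = 2.58e-08). All E18 values of these 3 genes lay far below every E13 library. Cenpa measured 14.6, 11.5, 9.16, 10.4 and 7.45 RPKM, Cdca8 15.3, 9.68, 13.8, 9.01 and 10.4 and Ccnb2 9.35, 8.83, 16.4, 6.60 and 7.69, and they fell, with changes of -3.33, -2.69 and -3.13. Cdc20 measured 19.3, 7.21, 12.7, 10.6 and 10.6 RPKM.

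The smallest changes were those of Incenp, Anln and Nuf2. Incenp went from 8.14, 8.60, 5.76, 8.08 and 9.03 RPKM at E13 to 2.82, 2.91, 7.30, 2.20 and 3.54 at E18, where replicate 3 alone reached the E13 range. Its log2 change was -0.98 (SE 0.28, limma adjusted p = 0.00574). Anln went from 1.57, 2.63, 3.38, 4.16 and 4.78 RPKM to 1.33, 0.118, 2.44, 1.05 and 0.350, near the listing floor of 1, and changed by -1.13 (SE 0.31, limma adjusted p = 0.00604). Nuf2 went from 9.07, 7.05, 17.2, 14.6 and 14.8 RPKM to 3.66, 2.92, 1.28, 4.10 and 3.25 with no overlap, a change of -1.73 (SE 0.27, limma adjusted p = 1.99e-05). By role, the medians ran from -3.55 for Ube2c and Cdc20 to -2.04 for the 5 kinetochore genes tested. Of 8 endothelial and mural markers 7 were lower at E18, with sums of 71.9 to 90.5 RPKM at E13 and 23.5 to 39.3 at E18, and their part in the falls was not tested. Erythroid markers went from sums of 8093 to 23397 RPKM at E11 and 3614 to 13456 at E13, with 4 listed at each, to 1.62 to 6.85 at E18, with 2 listed. Both of those 2 were lower at E18, and the part of blood cells in the falls was not tested. Neuron markers summed to 1709 to 3653 RPKM at E18, which overlaps their E13 range.

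**Figure D4:**
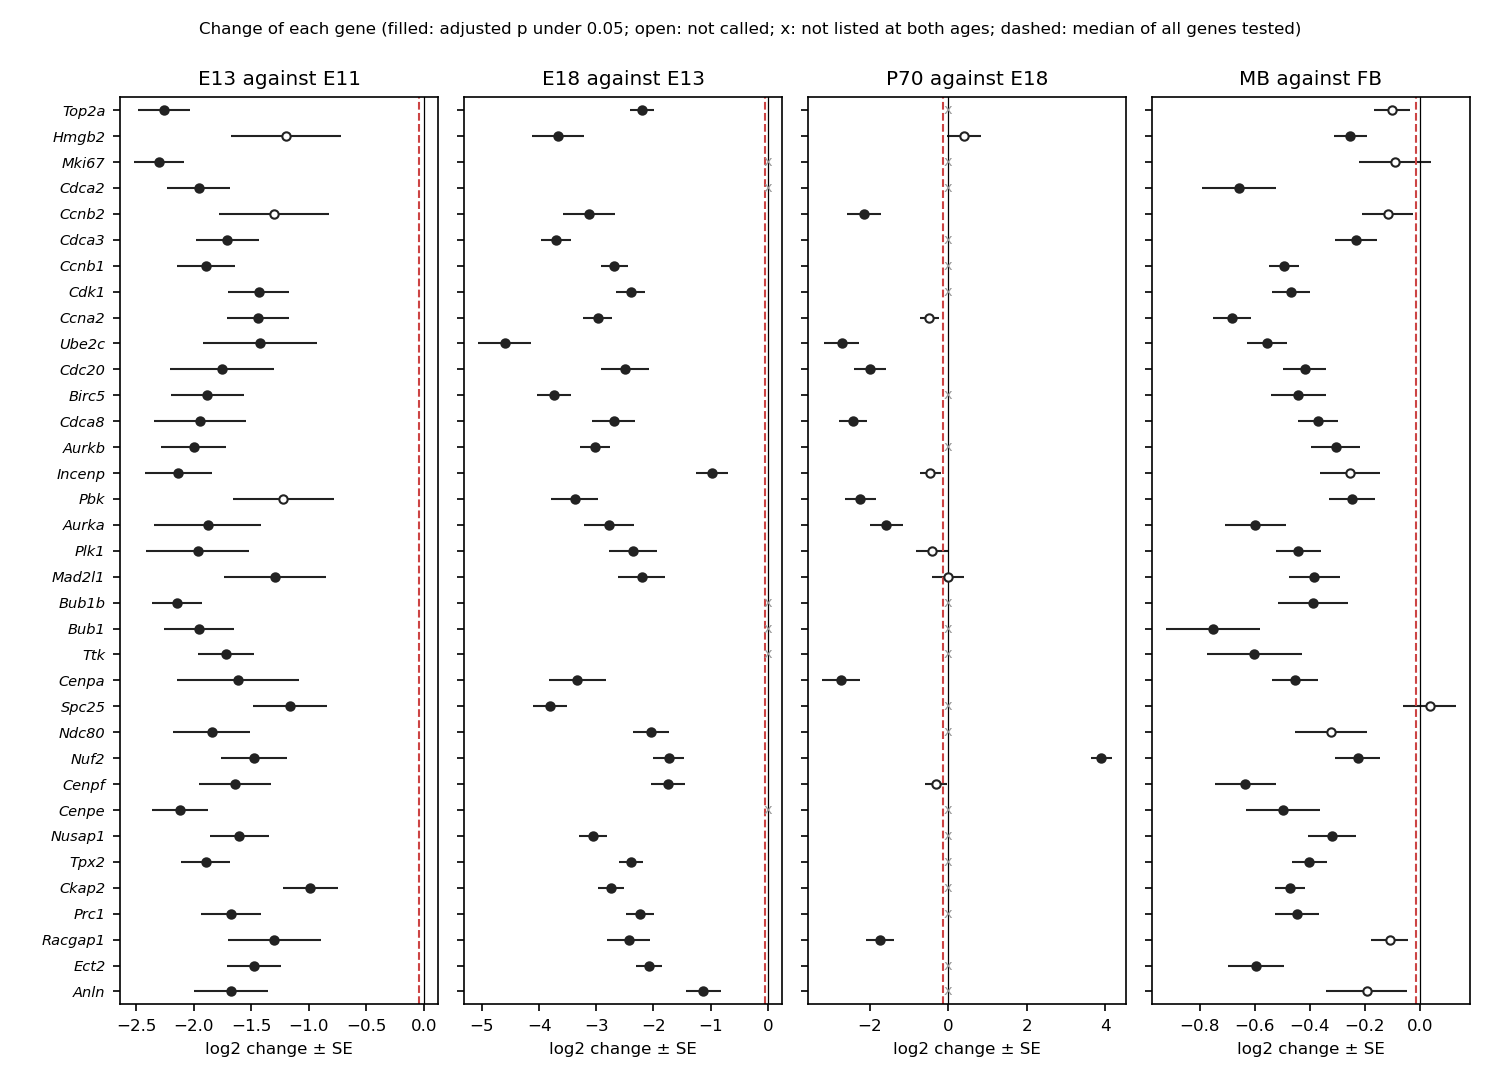
Log2 change with its SE for each gene (vertical axis, grouped by role) in the 4 comparisons, from limma for the 3 age comparisons and edgeR for the spheres. Filled points passed an adjusted p of 0.05, open points did not, a grey x marks a gene not listed at both ages, and the dashed line is the median of all genes tested. Horizontal scales differ between panels. Changes reach -4.60 from E13 to E18 and -0.75 between spheres, and at P70 Nuf2 is the 1 filled point to the right of 0.

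From E18 to P70, 15 genes could be tested, of which 8 fell, 1 rose and 6 did not pass (limma, adjusted p under 0.05). Of all 12353 genes tested, 24.0% fell and 16.9% rose, together 40.8%. The median log2 change of the 15 was -1.58, against -0.14 over all genes, and scaling libraries to equal medians moved the latter to -0.02. With that scaling 2504 genes rose and 2274 fell in place of 2082 and 2960, and the 8 falls and the rise were called again. A further 14 genes were listed at E18 and not at P70, namely Top2a, Ccnb1, Cdk1, Cdca3, Aurkb, Birc5, Nusap1, Tpx2, Ect2, Anln, Ndc80, Spc25, Prc1 and Ckap2, and 6 were listed at neither age. Of all 13340 genes listed at E18, 12353 were listed at P70 as well. In 2 of the 15 genes, Cdca8 and Nuf2, the ages did not overlap, beside 20.9% of all genes. Of 11 neuron markers 8 were lower at P70, with sums of 1709 to 3653 RPKM at E18 and 878 to 1229 at P70. Of 11 microglia and macrophage markers 5 were higher, with sums of 105 to 557 RPKM and then 395 to 579.7. Of 5 oligodendrocyte lineage markers tested, 2 were higher and 1 lower, with a median log2 change of -0.34. Another 3 were listed at P70 only and 1 at E18 only. Their sums went from 47.5 to 70.8 RPKM over 6 listed markers to 233 to 758 over 8. The part of these cells in the changes was not tested.

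The genes that fell were Cenpa, Ube2c, Cdca8, Pbk, Ccnb2, Cdc20, Racgap1 and Aurka, with log2 changes of -2.73, -2.70, -2.43, -2.24, -2.15, -1.99, -1.73 and -1.58. At P70 most libraries were at 0 for some of these genes. Cenpa was listed at 1.07, 0, 11.5, 0, 0 and 0 RPKM in P70 replicates 1 to 6, Ube2c at 0, 0, 8.06, 0, 0.998 and 0, and Pbk at 0, 0, 6.003, 0, 0 and 0. Replicate 3 thus carried nearly all of their P70 level. Since it was their highest library, leaving it out could only enlarge these falls, to -3.30 for Cenpa and -3.20 for Ube2c. All 8 calls held with any library left out, but the genes tested stayed those listed with all libraries. Cenpa, Ube2c and Pbk averaged 1 or more at P70 only through replicate 3. Their calls without that library therefore cannot show how firm these falls are. For Pbk the value of replicate 3 stands for 20 recovered reads, and for Cenpa for 32, numbers that may be doubled as said above. With the quasi-likelihood test of edgeR on recovered reads, 3 of 12 genes fell and Aurka, Pbk and Cenpa were no longer called. Reads were not recovered for Ube2c and Racgap1, so their falls were not tested there. Cdca8 was listed at 4.61, 1.67, 2.95, 0, 1.54 and 0 RPKM and Cdc20 at 0.457, 1.56, 7.37, 4.78, 2.93 and 0.384. Replicate 3 was the highest library for 7 of the 15 genes, and replicate 6 was at 0 for 8. The erythroid markers of replicate 3 summed to 293 RPKM, against 7.12 to 31.7 in the other P70 libraries, and the part of blood cells in its values was not tested. Depth was lower at P70, with 1071229 to 2446822 recovered reads against 2498760 to 3232235 at E18, and its part in these falls was not tested.

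The 6 genes that did not pass were Ccna2, Plk1, Cenpf, Hmgb2, Mad2l1 and Incenp, with log2 changes of -0.48, -0.41, -0.30, 0.40, 0.00 and -0.45. Hmgb2 measured 2.17, 4.33, 0.816, 3.61 and 2.41 RPKM at E18 and 4.72, 8.83, 0, 2.53, 9.31 and 3.36 at P70, where replicate 3 was at 0, and without that library it was called higher, at 0.84 with a limma adjusted p of 0.0391. Mad2l1 measured 4.38, 5.30, 6.34, 6.18 and 4.61 RPKM and then 8.90, 9.24, 0.584, 2.27, 8.09 and 12.4, a spread at P70 on both sides of the E18 values. Cenpf, a large kinetochore protein, measured 3.32, 1.196, 0.673, 1.41 and 1.48 RPKM and then 2.27, 1.26, 0, 0.903, 1.47 and 0.926, near the listing floor. Ccna2 measured 5.82, 6.47, 4.04, 5.73 and 6.24 RPKM at E18 and 3.67, 3.12, 5.72, 4.35, 4.45 and 1.98 at P70 and was above 0 in each library. The Ccna2 gene overlaps Exosc9 and the Cdc20 gene overlaps Elovl1 in the annotation, as do Ube2c and Tnnc2, Nusap1 and Oip5, and Prc1 and Rccd1. The protocol marks no strand, so reads from stretches that both genes of a pair share cannot be told apart. How long those stretches are was not measured.

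The exception was Nuf2, which encodes a coiled-coil subunit of the Ndc80 complex and is annotated at chr1:169497934-169531464 on the minus strand of GRCm38. Nuf2 measured 89.4, 92.9, 40.4, 53.5, 48.9 and 40.9 RPKM in P70 replicates 1 to 6, after 3.66, 2.92, 1.28, 4.10 and 3.25 at E18. Every P70 library lay far above every E18 library, and above every E11 library as well, where Nuf2 measured 33.7, 38.1, 32.8 and 35.6 RPKM. In limma Nuf2 rose by 3.91 on the log2 scale (SE 0.26, adjusted p = 3.34e-10), and over the alternatives its adjusted p in limma or edgeR ran from 1.19e-10 to 1.42e-07. The P70 values stand for 548, 749, 184, 188, 257 and 298 recovered reads. Ependymal markers rose over the same interval, 7 of 8 in limma, with sums of 5881 to 8623 RPKM at E18, and their part in the rise of Nuf2 was not tested. No other annotated gene overlaps Nuf2 on either strand.

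No other subunit of the Ndc80 complex was listed at P70. Ndc80 measured 1.63, 0.300, 3.78, 1.67 and 1.56 RPKM at E18 and Spc25 5.81, 5.37, 8.40, 6.53 and 7.74. Spc24, the fourth subunit and not among the 35, measured 3.54 ± 2.88 (SD, n = 5) RPKM at E18. At E11 the order was Spc25, Spc24, Ndc80 and Nuf2, with means of 244, 142, 37.3 and 35.1 RPKM, the last 2 closer than their SDs. In FB spheres Nuf2, Ndc80 and Spc25 stood at 29.7, 20.3 and 56.6 CPM per kilobase. In the promoter windows printed above, Ndc80 and Spc25 hold a CHR match and Nuf2 does not. Birc5 and Nusap1, whose windows also hold neither a CHR nor a CCAAT match, were not listed at P70. Mad2l1, which holds neither, was not called there. Whether these letters bear on the level of Nuf2 was not tested.

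**Figure D5:**
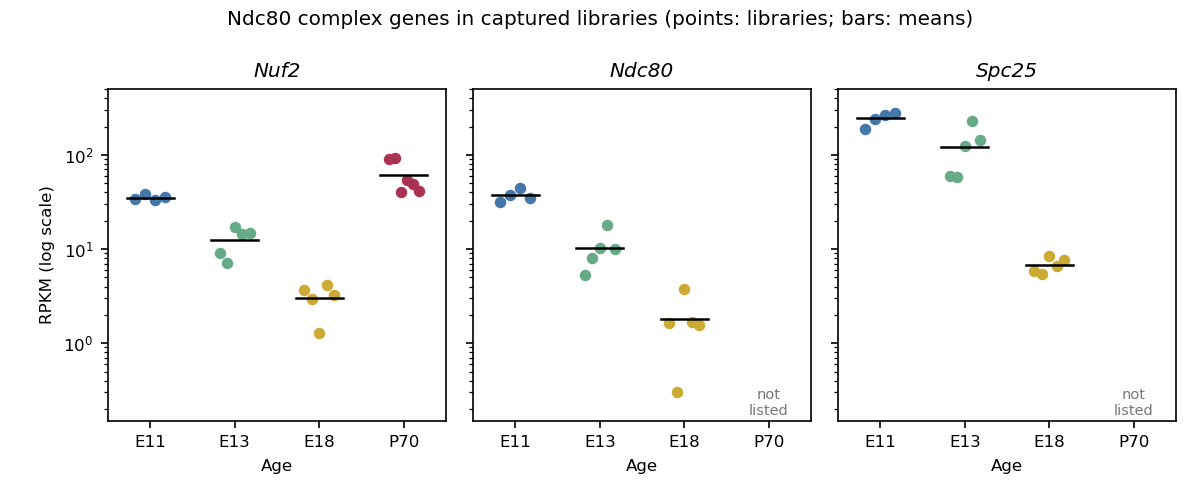
RPKM on a log axis of Nuf2, Ndc80 and Spc25 in each captured library (points, coloured by age) with the mean of each age (bars). All 3 genes go down from E11 to E18, and at P70 Nuf2 sits at 40.4 to 92.9 RPKM while Ndc80 and Spc25 are not listed.

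The spheres were compared with each other, since they were deposited in a table of their own. All 35 genes were measured, with 118 to 3637 counts per gene and library. In MB, 27 of the 35 were lower than in FB (edgeR, adjusted p under 0.05), beside 14.3% of all 12886 genes tested that were lower and 29.6% that differed in either direction. The differences were small. The median log2 difference was -0.40, against -0.02 over all genes, and the 27 genes differed 1.16-fold to 1.67-fold. The difference was negative for 34 of the 35, and in 18 every MB library lay below every FB library, beside 9.10% of all genes with MB below and 21.1% with no overlap in either direction. Summed over the 35 genes, MB libraries held 4092, 4150.0, 3961, 4154 and 4076 CPM and FB libraries 5391, 5211, 5263, 5039 and 5162, with no overlap.

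The largest difference was that of Bub1, which measured 27.8, 42.4, 48.6, 21.9 and 39.2 CPM in MB and 69.3, 53.5, 56.1, 67.4 and 54.1 in FB. Every MB library lay below every FB library, and the log2 difference was -0.75 (SE 0.17, edgeR adjusted p = 0.0021). Ccna2 measured 150.3, 146, 169, 153 and 143 CPM and 262, 238, 254, 241 and 216, a difference of -0.68 (SE 0.07, edgeR adjusted p = 2.81e-07) with no overlap. Cdca2 measured 38.4, 38.3, 40.2, 28.5 and 39.4 CPM and 52.5, 73.4, 47.5, 63.0 and 51.8, a difference of -0.66 (SE 0.13, edgeR adjusted p = 9.17e-04), again with MB lower throughout. Of the genes with the highest CPM in FB, Ccnb1 differed by -0.49, Cdc20 by -0.42, Ckap2 by -0.47 and Hmgb2 by -0.25, and all 4 passed. Top2a, also among the highest, did not pass.

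The 4 chromosome genes had the smallest median difference by role, at -0.18. Mki67 measured 87.1, 122, 78.2, 103 and 72.8 CPM in MB and 123, 84.0, 102, 87.2 and 91.1 in FB, with overlap, and its difference, -0.09, did not pass (SE 0.13, edgeR adjusted p = 0.651). Top2a measured 314, 333, 336, 373 and 351 CPM and 398, 345, 336, 346 and 386, and its difference, -0.10, did not pass (SE 0.07, edgeR adjusted p = 0.263). Spc25 measured 81.8, 86.6, 106, 106 and 84.5 CPM and 88.3, 84.9, 94.6, 85.2 and 96.0, the one positive difference, at 0.04 (SE 0.09, edgeR adjusted p = 0.817). The other genes that did not pass were Ccnb2, Anln, Ndc80, Incenp and Racgap1. All 4 checkpoint genes were lower in MB, with a median of -0.49. Nuf2 differed by -0.23 with an edgeR adjusted p of 0.0467, and most alternatives ended that call, up to an adjusted p of 0.183. The Bub1b call ended without MB replicate 2, 3 or 4 or FB replicate 1, 4 or 5, with an edgeR adjusted p of up to 0.0764. That of Pbk ended without MB replicate 1, 3 or 5 or FB replicate 1, 3 or 5, up to 0.122, and that of Cdca3 without MB replicate 1 or 4 or FB replicate 1, 2 or 3, with an adjusted p of up to 0.112 over all alternatives. Incenp passed without MB replicate 5, Anln without FB replicate 2 and Ndc80 without FB replicate 4, and their lowest edgeR adjusted p were 0.0468, 0.0439 and 0.0487. The oligodendrocyte lineage markers, which were high in both kinds of sphere, summed to 2711 to 3402 CPM in MB and 3278 to 3702 in FB, with 5 of 9 lower and 2 higher in MB. Their part in the differences was not tested.

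The other genes of the pathway were read in the same fits, beside the share of all genes that fell, which was 11.5% from E11 to E13, 25.0% from E13 to E18 and 24.0% from E18 to P70, and 14.3% lower in MB. Of 76 further mitosis genes, 71 were tested between E11 and E13, of which 57 fell, with a median log2 change of -1.47, and 3 were listed at E11 only. Between E13 and E18, 42 of 53 fell and 1 rose, and 18 were listed at E13 only. The gene that rose was Ckap5, a microtubule polymerase, from 22.1 to 69.2 RPKM, a change of 1.61 (SE 0.15, adjusted p = 1.90e-08) in limma. The largest fall was that of Cdc25b, the phosphatase that activates Cdk1, at -3.81. Between E18 and P70, 13 of 37 fell and 2 rose, with Wee1, the kinase that restrains Cdk1, at 1.26 the larger rise. In the spheres 25 of 76 were lower in MB, with a median of -0.28 and the largest difference in the kinesin Kif20b, at -0.95.

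Condensin subunits, which compact chromosomes, followed the mitosis genes at first. Between E11 and E13, 7 of 8 fell, namely Smc2, Smc4, Ncapd2, Ncapg, Ncaph, Ncapg2 and Ncaph2, at -1.49, -1.36, -1.99, -1.53, -1.96, -1.77 and -0.91. Smc2, Smc4, Ncapd2 and Ncaph fell again from E13 to E18, at -1.52, -1.997, -1.76 and -1.14, and Smc2 and Smc4 from E18 to P70, each at -0.80. In MB spheres Smc2, Smc4, Ncapd2 and Ncapg were lower than in FB, by differences of -0.31 to -0.24 in the first 3 and -0.43 in Ncapg, and Ncaph2 was higher at 0.25. The subunits of the anaphase-promoting complex itself, which works in cells that have stopped dividing too, had a smaller median change. Of 14 subunits, 1 fell between E11 and E13, Anapc1 at -0.70, and the median was -0.07. Their summed level was 1627 to 1874 RPKM at E11 and still 939 to 1166 at P70. From E13 to E18, 8 of 14 fell, with Cdc16 largest at -1.36, and from E18 to P70, 7 fell and Anapc11 rose by 0.50. In the spheres Cdc26 was lower in MB, at -0.37, and Anapc2 higher, at 0.24.

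Of 22 transcriptional regulators of mitotic genes, 20 were tested between E11 and E13, and 7 fell. The largest fall was that of Foxm1, a forkhead factor that activates late cell cycle genes, from 23.2 to 4.09 RPKM, a change of -2.28 (SE 0.24, adjusted p = 5.91e-06) in limma. Mybl2 (B-MYB) fell, with a change of -1.84 and the repressor E2f8, at -2.10. From E13 to E18, 11 of 18 fell, with Tfdp2 the largest at -1.62, and from E18 to P70, 3 of 16 fell, E2f5 most at -1.64, while Lin37 of the DREAM complex rose by 0.68. In the spheres 4 of 22 were lower in MB, E2f5 most at -0.66. The counts at P70 and in the spheres are near those shares of all genes. Foxm1 differed there by -0.32 and did not pass.

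Of the 8 G1 cyclins and kinases, Ccnd1, Ccnd2, Ccnd3, Ccne1, Ccne2 and Cdk2 fell between E11 and E13, at -2.09, -2.44, -0.97, -2.47, -1.44 and -1.50. Cdk4, the partner of D cyclins, did not pass then, at -0.19, and fell, with a change of -2.76 from E13 to E18, together with Ccnd1, Ccnd2, Ccne2 and Cdk2, which fell, with changes of -0.87, -1.59, -1.21 and -0.68. From E18 to P70, Ccnd2 and Cdk6 rose by 0.77 and 1.02, and Ccnd1 and Cdk2 fell, with changes of -0.77 and -1.39. In MB spheres Ccnd1, Ccnd2, Ccnd3, Ccne1, Ccne2 and Cdk4 were lower than in FB, at -0.38, -0.39, -0.42, -0.49, -0.52 and -0.24. Of the 5 Cdk inhibitors tested between E11 and E13, Cdkn2c came nearest to passing, with a change of -1.36 (SE 0.50, adjusted p = 0.0634) in limma. From E13 to E18 Cdkn1c (p57), a brake on cell cycle entry, fell from 326 to 11.5 RPKM, a change of -4.76 (SE 0.27, adjusted p = 6.51e-12) in limma. Cdkn2c fell, with a change of -1.78, and Cdkn1a (p21) and Cdkn1b (p27) rose by 2.18 and 1.22. Cdkn1c and Cdkn2d fell from E18 to P70, at -1.45 and -0.85. Cdkn1a and Cdkn2b were lower in MB than in FB spheres, at -0.85 and -0.77.

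The 40 DNA replication genes, which act before mitosis, fell in 36 cases between E11 and E13, with a median of -1.79, and Uhrf1 fell most, at -3.01. From E13 to E18, 29 of 36 fell and 2 rose, with Gmnn, the inhibitor of relicensing, at -3.43, and Rpa1 at 0.51. From E18 to P70, 9 of 35 fell and 2 rose, Mcm4 by 0.74 and Gins4 by 0.40. At P70 35 of the 40 were still listed, with summed levels of 478 to 596 RPKM, against 15 of the 35 mitosis genes. Of all 14997 genes kept, 13291 were listed at P70. In the spheres 11 of 40 were lower in MB, with a median of -0.18. In multiciliated cells, relatives of cell cycle genes serve the making of many centrioles. Of 7 such genes, 1 had values at E13 and all 7 at E18. Ccno, Ccdc67, Mcidas, Cdc20b and Gmnc had none before E18, and Myb was listed at E11, at 2.68 ± 0.917 (SD, n = 4) RPKM, and again at E18, while the centriole kinase Plk4 fell from E11 to E13 and again to E18, at -1.60 and -0.78. At E18 the cyclin Ccno measured 17.2 ± 12.1 (SD, n = 5) RPKM, the deuterosome gene Ccdc67 (Deup1) 20.4 ± 10.9 (SD, n = 5), Mcidas 6.498 ± 5.23 (SD, n = 5), Cdc20b 4.04 ± 4.65 (SD, n = 5) and Gmnc 1.08 ± 1.04 (SD, n = 5). Replicate 1 was the highest E18 library for each of these genes, and Cdc20b stood at 12.3 RPKM there against 1.22 to 2.42 in the others. From E18 to P70 Ccno and Ccdc67 fell, with changes of -2.53 and -1.07, and Myb rose by 2.08, from 8.72 to 33.1 RPKM. Mcidas, Cdc20b and Plk4 were listed at E18 and not at P70. In the spheres, Plk4 was the 1 gene of this list that could be tested and was lower in MB, at -0.39.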

How the data were processed

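RNA was sequenced from 20 captured and 10 sphere libraries with a Smart-seq2 protocol, per the labels' protocols, without molecular identifiers. The submitters' processing notes name STAR 2.3, Salmon 1.6.0 and DESeq2 1.34.0 with builds mm10 and GRCm39, with no role for each. The captured values were deposited by the authors in an unnamed unit other than whole counts, normalised per length and depth like RPKM. They were tested as log2(value + 1) of the deposited values in limma 3.58.1 with a mean trend, in 1 fit of 20 libraries, for genes listed at both ages. The 142 lines with repeated symbols were left out. Reads were recovered for 9787 genes (65.3%) from values that are whole multiples of 1 step within 0.01 reads, giving the depths above, and 62.4% to 73.0% of low recovered counts were even. The sphere values are counts as deposited by the authors, and were tested in edgeR 4.0.16 (quasi-likelihood, TMM, filterByExpr). R was 4.3.3. Adjusted p are Benjamini-Hochberg over all genes tested, with a threshold of 0.05.

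In data simulated on the 11567 genes of the E13 and E11 comparison, 86.4% of 4-fold and 43.3% of 2-fold changes were recovered. On the 11797 genes of E18 and E13 the shares were 84.8% and 52.2%, and on the 12353 of P70 and E18 they were 95.5% and 46.3%. In the sphere comparison, simulated on 12648 genes, the shares were 93.9% and 77.6%. Of 1.5-fold changes, 10.4% were recovered for E13 and E11, 10.4% for E18 and E13, 14.9% for P70 and E18 and 59.7% for the spheres.

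The 35 genes and all lists were chosen with earlier results of these data known. Values in every library are given for the 3 genes with the largest and the 3 with the smallest change in each comparison, for genes called against the main direction and for the 6 highest at E11. From other lists, the called gene with the largest change in each direction is named, and every called gene in lists of 8 or fewer. Further genes were named after their values were seen. Alternatives were another pseudocount, filter, scaling, weighting, set of libraries or tool (DESeq2 1.42.0 for spheres), the replicate block, and each library left out.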

Additional observations from a re-analysis of the deposited data

Results flagged for a closer look

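The highest or lowest library of a group was measured by its gap to the nearest library over the group's range. The 21 genes chosen by size of change or by level were checked, and the rest, such as Pbk, were not. In 9 of 112 groups such a library stood far from the others. Chance alone gives this in about 1 in 20 groups. The low ones at E11 were Ccnb1 in replicate 4, at 155 RPKM, and Hmgb2 in replicate 1, at 79.4 RPKM. At E13 Incenp was low in replicate 3, at 5.76 RPKM, and at E18 it was high in replicate 3, at 7.30 RPKM. Ccnb2 was high in the same E18 library, at 16.4 RPKM. At P70 Ube2c and Cenpa were high in replicate 3, at 8.06 and 11.5 RPKM. In the spheres Cdca2 was low in MB replicate 4, at 28.5 CPM, and Anln was low in FB replicate 2, at 29.956 CPM.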

How the results depend on the processing

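The count of genes that fell from E11 to E13 was 28 to 34 with single libraries left out, against 32, and a pseudocount of 0.1 ended 9 of the calls. All 35 fell with a pseudocount of 5, with library weights or with the 2 ages alone. In edgeR on recovered reads, all 22 genes tested fell. From E13 to E18 all 29 fell with any library left out, and edgeR on recovered reads called all 19 it could test. From E18 to P70, 8 fell with any library left out, 5 of the 7 genes with a mean of at least 5 RPKM fell, and 3 of 12 in edgeR on recovered reads. The genes tested were not chosen anew when a library was left out, and Cenpa, Ube2c and Pbk were listed at P70 only through replicate 3. The count that rose was 1 to 2, with Hmgb2 added without P70 replicate 3. In the spheres 23 to 26 genes were lower in MB with single libraries left out, against 27. Mad2l1 at P70, not called, turned to -0.14 with a pseudocount of 0.1 and ran from -0.21 without P70 replicate 6 to 0.40 without P70 replicate 3. In the spheres, also not called, Mki67 turned to 0.013 without FB replicate 1, and Spc25 ran from -0.019 without MB replicate 4 to 0.078 without MB replicate 1. The cause was not tested. With the replicate block, 32, 29 and 8 genes fell, 1 rose at P70, 25 were lower in MB, and Mad2l1 at P70 turned to -0.21. The block ended the call of Cenpa and added Ccnb2 from E11 to E13, and ended those of Pbk and Nuf2 in the spheres. Same-numbered libraries of neighbouring groups correlated at -0.15 to 0.25. Such values cannot show whether libraries of the same number share an animal or culture, which no label states.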
